A study of Mus musculus with 5 samples.

Results

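Malat1, Neat1, 6 noncoding host genes of small nucleolar RNAs (Gas5, Snhg1, Snhg3, Snhg5, Snhg8 and Snhg12) and 2 genes classed as protein-coding hosts, Rnf149 and Eif4a2, were followed in LPS-stimulated bone marrow-derived macrophages (BMMs) with and without semaphorin 3G (Sema3G). These 10 genes were taken by symbol from the 24419 rows of the deposited gene table, and each symbol had 1 row. They were selected on their measured UMI levels and differences between PBS and Sema3G in these same libraries. Their values are therefore a description, with no p-value printed, and calls among them are only counted beside those of all genes.

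Malat1 and Neat1 are long noncoding RNAs that stay in the nucleus, where Malat1 is concentrated in nuclear speckles, stores of splicing factors, and Neat1 is the scaffold of paraspeckles. Small nucleolar RNAs guide the chemical modification of other RNAs, mainly ribosomal RNA, with C/D box members directing 2′-O-methylation and H/ACA box members directing pseudouridylation. In mammals most of them are cut out of the introns of a host gene, and in the noncoding hosts the spliced remainder carries no long reading frame and is in several cases degraded by nonsense-mediated decay. The level of a host RNA and that of the small RNAs inside it are therefore separate quantities.

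The cells were C57BL/6 mouse bone marrow cells grown for 5 days with 50 ng/ml M-CSF into macrophages and stimulated with 100 ng/ml LPS, and were then kept for 18 h with PBS (2 samples) or with 100 ng/ml recombinant Sema3G, made with an Fc tag in a human kidney cell line (3 samples). Sema3G, a secreted semaphorin, binds neuropilin-2, and the comparison asked what it changes in activated macrophages. All 5 samples carried LPS, and PBS was the only control, so no unstimulated macrophages and no control protein with an Fc tag enter the comparison. The labels do not say whether samples came from separate mice or cultures, and p-values then measure only the spread between these samples, which may be technical.

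The libraries read the 3′ end of RNAs primed at adenine stretches, with a unique molecular identifier (UMI) for each molecule. Each value is a CPM, the UMIs of a gene after scaling every library to the same total, and it is not divided by gene length because each molecule gives 1 tag. Library totals ranged from 1798469 to 2215855 UMIs, and 3 UMIs corresponded to 1.35 to 1.67 CPM. The share of UMIs on listed genes was 76.6% ± 1.44 with PBS (SD, n = 2) and 68.1% ± 2.86 with Sema3G (SD, n = 3), while Rn45s, the ribosomal RNA precursor, held 1.01% and 3.19% of all UMIs with PBS and 6.31%, 7.40% and 7.88% with Sema3G. The summed level of 6 macrophage markers was 8396 to 11489 CPM with PBS and 8056 to 8400 CPM with Sema3G. The summed markers of T cells, B cells, neutrophils, dendritic cells and mast cells or basophils stayed at or under 2.78 CPM in every library, with Cd3e, all 3 B cell markers, Elane, Flt3, Fcer1a and Mcpt8 at 0, and the 3 stromal markers summed to 6.96 to 21.4 CPM with PBS and 6.32 to 16.6 CPM with Sema3G. Their part in the values below was not tested, and in bulk samples fewer cells of a type and less RNA per cell cannot be told apart.

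The 3′ ends of the nuclear RNAs are shown because the libraries read RNA 3′ ends. Malat1 lies at chr19:5795690-5802672 and Neat1 at chr19:5824708-5845478, both on the minus strand and 22035 bp apart (GRCm38, GENCODE M21), and both are annotated as long intergenic noncoding RNAs. The end of mature Malat1 is known to be made by RNase P, which leaves an adenine-rich stretch that is encoded in the genome and folds into a triple helix, and releases a small tRNA-like RNA, mascRNA. The long form of Neat1 ends in the same way, and its short form is polyadenylated. In the Malat1 sequence below (chr19:5795924-5796109, minus strand, positions 6564 to 6749 of the transcript) capitals mark a run of 12 adenines, which lies 6 bases before the 58 nt mascRNA of RefSeq and 298 bases before the annotated transcript end. The other lines give the last 80 bases of the long Neat1 transcript (20771 nt, chr19:5824708-5824787) and of the short one (3004 nt, chr19:5842307-5842386), where capitals mark the polyadenylation hexamer AATAAA.
Malat1: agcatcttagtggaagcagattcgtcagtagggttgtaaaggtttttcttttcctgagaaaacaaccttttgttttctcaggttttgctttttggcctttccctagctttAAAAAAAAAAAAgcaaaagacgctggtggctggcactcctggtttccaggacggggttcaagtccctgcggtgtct
Neat1 long: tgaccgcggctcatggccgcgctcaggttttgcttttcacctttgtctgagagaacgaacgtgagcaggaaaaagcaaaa
Neat1 short: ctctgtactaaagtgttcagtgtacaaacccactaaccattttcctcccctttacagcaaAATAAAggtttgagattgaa

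The 6 noncoding hosts are also set side by side by their promoters, as genes of 1 class. RefSeq windows (GRCm38.p6, 250 bases before to 50 after the start) were found for 9 of the 10 genes, all but Neat1. TATAAA or TATATA, counted on either strand, was in a window of 6 of the 6 noncoding hosts (6 of their 7 windows, since Gas5 has a pair of starts), in none of Malat1, Rnf149 and Eif4a2, and in 17.1% of all 32851 windows. Counted on the sense strand and only between 40 and 21 bases before the start, it was in Gas5, Snhg8 and Snhg12 and in 2.55% of all windows. TGACGTCA was in the Gas5 window alone among these genes and in 1.79% of all windows. Printed for each host are 100 bases, from 60 before to 40 after the start, with the motif in capitals. It reads TATATA in Gas5 and Snhg12 and TATAAA in the rest, except that Snhg1 has TTTATA, which is TATAAA on the other strand. The marked letters begin at -29 in Gas5 (chr1:161035106-161035205, plus strand), -30 in Snhg8 (chr3:123508297-123508396, minus strand), 23 bases into the transcript in Snhg3 (chr4:132353647-132353746, minus strand), -29 in Snhg1 (chr19:8723427-8723526, plus strand), -23 in Snhg5 (chr9:88522858-88522957, minus strand) and -32 in Snhg12 (chr4:132308618-132308717, plus strand). A match describes the letters and is not evidence of binding.
Gas5: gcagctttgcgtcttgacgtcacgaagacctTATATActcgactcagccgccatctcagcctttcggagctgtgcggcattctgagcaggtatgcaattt
Snhg8: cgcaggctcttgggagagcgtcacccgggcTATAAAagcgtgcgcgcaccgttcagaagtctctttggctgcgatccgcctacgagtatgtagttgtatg
Snhg3: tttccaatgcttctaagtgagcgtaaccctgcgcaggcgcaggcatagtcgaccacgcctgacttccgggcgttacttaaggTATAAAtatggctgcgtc
Snhg1: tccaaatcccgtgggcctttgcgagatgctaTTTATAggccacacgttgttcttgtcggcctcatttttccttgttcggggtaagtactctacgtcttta
Snhg5: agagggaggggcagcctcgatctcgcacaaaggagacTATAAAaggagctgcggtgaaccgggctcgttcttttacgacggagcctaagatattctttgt
Snhg12: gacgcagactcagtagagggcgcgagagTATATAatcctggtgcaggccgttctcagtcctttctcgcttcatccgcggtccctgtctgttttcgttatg

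Of the nuclear RNAs, Malat1 was higher in the Sema3G libraries and Neat1 lower, the latter by little more than the median gene once PBS replicate 2 was left out. Malat1 had 1069 and 2519 UMIs in the PBS libraries against 4568, 8840 and 11321 in the Sema3G libraries, which is 587 and 1349 CPM against 2540, 3989 and 5219 CPM. Every Sema3G library was above both PBS libraries, and the means were 968 ± 538 CPM (SD, n = 2) and 3916 ± 1341 CPM (SD, n = 3), a ratio of 4.05. The log2 fold change, always Sema3G minus PBS on log2(CPM + 1), was 2.08 (standard error 0.33), or 2.30 above the median of all genes tested. That median was -0.22 with the deposited scaling, -0.036 with TMM scaling and 0.042 with CPM over listed genes other than Rn45s, so a small difference of either sign is to be read against it. It was 1.48 without PBS replicate 1 and 2.67 without PBS replicate 2, so its size rests on which PBS library is taken.

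Malat1 also spread widely within each group. PBS replicate 2 was at 2.30 times PBS replicate 1 (95% interval 2.14 to 2.47), Sema3G replicate 2 at 1.57 times replicate 1 (1.52 to 1.63) and Sema3G replicate 3 at 1.31 times replicate 2 (1.27 to 1.35). None of these intervals, which cover counting error only, includes 1, so the libraries of a group differed by more than counting. Rn45s stood in the same order over the 5 libraries, and there were 5.84 and 4.23 Malat1 UMIs per 100 Rn45s UMIs with PBS and 4.02, 5.39 and 6.62 with Sema3G, where the groups overlap. The part of Rn45s in the Malat1 values was not tested.

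Neat1 had 3645 and 4763 UMIs in the PBS libraries against 2662, 3651 and 3342 in the Sema3G libraries, or 2003 and 2550 CPM against 1480, 1648 and 1541 CPM. All 3 Sema3G libraries were below both PBS libraries, with means of 2276 ± 387 CPM (SD, n = 2) and 1556 ± 84.8 CPM (SD, n = 3). The log2 fold change was -0.54 (standard error 0.23), which is -0.31 against the median of all genes, and it was -0.71 when PBS replicate 1 was left out and -0.37 when PBS replicate 2 was. Against the median of all genes in those fits it was -0.58 and -0.067, so the difference beyond the median gene rests on PBS replicate 2. The PBS libraries differed for Neat1 too, by 1.27 times (95% interval 1.22 to 1.33), with the higher value in replicate 2 as for Malat1. The ratio of Malat1 to Neat1 UMIs was 0.293 and 0.529 with PBS and 1.72, 2.42 and 3.39 with Sema3G, so that Neat1 gave more UMIs than Malat1 in each PBS library and fewer in each Sema3G library. Tags near either end of Neat1 fall in 1 row of the table, so its long and short forms cannot be told apart here.

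**Figure D1:**
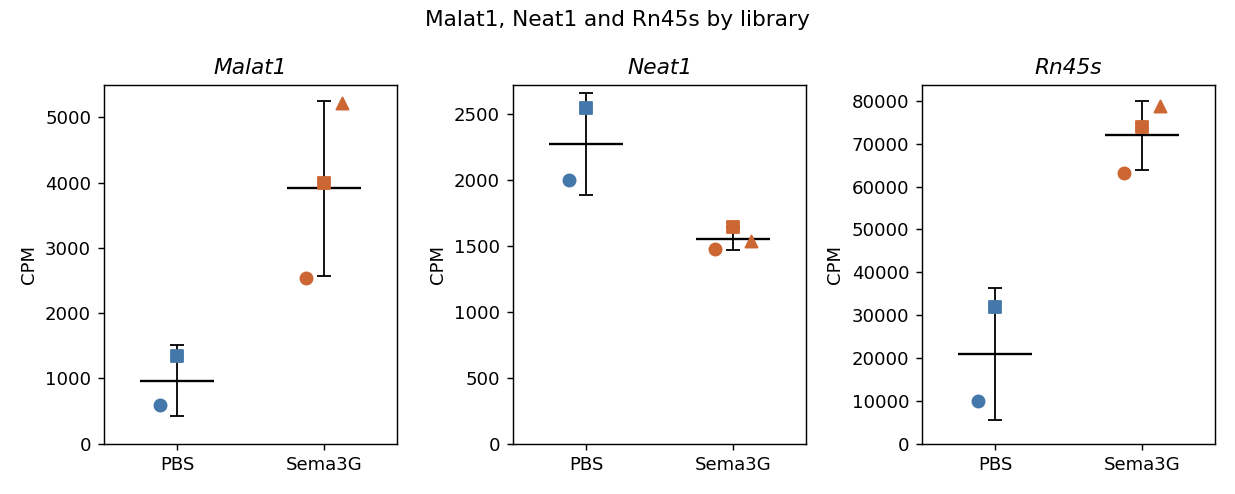
CPM of Malat1, Neat1 and Rn45s in each library, with PBS in blue and Sema3G in orange; circles, squares and triangles are replicates 1, 2 and 3, and the bars are the mean ± SD. For Malat1 and Rn45s each Sema3G point lies above the PBS points, and for Neat1 each lies below.

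All 6 noncoding hosts had log2 fold changes below 0 in the fit of the 5 libraries, though Snhg3 turned above 0 without PBS replicate 1 and with CPM over listed genes other than Rn45s, and Snhg5 without PBS replicate 2. The values lay between -0.57 and -0.23 with a median of -0.37, beside a median of -0.22 over all genes tested. Their UMIs together were 490 and 458 with PBS and 379, 393 and 338 with Sema3G, or 269 and 245 CPM against 211, 177 and 156 CPM, without overlap. Gas5 and Snhg8 gave most of these UMIs.

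Gas5, a host of C/D box RNAs whose spliced form accumulates in growth-arrested cells, lies at chr1:161034422-161038539 on the plus strand. Its UMI counts were 250 and 235 in the PBS libraries against 180, 214 and 158 in the Sema3G libraries, which is 137 and 126 CPM against 100.1, 96.6 and 72.8 CPM. Every Sema3G library was below both PBS libraries, which were close to each other at a ratio of 0.916 (95% interval 0.763 to 1.10). The means were 132 ± 8.17 CPM (SD, n = 2) and 89.8 ± 14.8 CPM (SD, n = 3), and the log2 fold change of -0.56 (standard error 0.20) ranged from -0.64 to -0.27 over 14 alternatives.

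Snhg8, which holds the H/ACA box RNA Snora24, lies at chr3:123507552-123508404 on the minus strand. Its UMI counts were 135 and 134 in the PBS libraries against 117, 95 and 90 in the Sema3G libraries, or 74.2 and 71.7 CPM against 65.1, 42.9 and 41.5 CPM. The PBS libraries lay together, Sema3G replicate 1 lay just under them, and the other two Sema3G libraries lay clearly lower. The means were 73.0 ± 1.72 CPM (SD, n = 2) and 49.8 ± 13.2 CPM (SD, n = 3), and the log2 fold change was -0.57 (standard error 0.22), with a range over 14 alternatives from -0.78 without Sema3G replicate 1 to -0.29 with CPM over listed genes other than Rn45s.

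Snhg3, the host of the U17 RNAs Snora73a and Snora73b, which act in the cleavage of ribosomal RNA, lies at chr4:132348014-132353686 on the minus strand. Its UMI counts were 68 and 41 in the PBS libraries against 43, 51 and 57 in the Sema3G libraries, which is 37.4 and 21.9 CPM against 23.9, 23.0 and 26.3 CPM. The Sema3G libraries lay close together, inside the gap between the PBS libraries. The log2 fold change of -0.23 (standard error 0.26) turned to 0.14 without PBS replicate 1 and to 0.056 with CPM over listed genes other than Rn45s, and was -0.60 without PBS replicate 2, so no direction can be read. Snhg3 shares its strand with Rcc1, which overlaps it and had 34 and 9 UMIs in the PBS libraries against 15, 25 and 14 in the Sema3G libraries, so reads may be split between these genes and the Snhg3 counts are uncertain.

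The remaining hosts were rare. Snhg1, the host of Snord22 at chr19:8723475-8726443 on the plus strand, had 21 and 21 UMIs in the PBS libraries against 20, 16 and 18 in the Sema3G libraries, or 11.5 and 11.2 CPM against 11.1, 7.22 and 8.30 CPM. Sema3G replicate 1 was close under PBS replicate 2, so the groups were barely apart, and the log2 fold change was -0.35 (standard error 0.34). Snhg12, at chr4:132308623-132311024 on the plus strand, had 10 and 9 UMIs in the PBS libraries against 8, 8 and 9 in the Sema3G libraries, a log2 fold change of -0.28 (standard error 0.41), which at this depth cannot be told from no change. Snhg5, the host of the U50 RNAs at chr9:88521050-88522929 on the minus strand, had 6 and 18 UMIs in the PBS libraries against 11, 9 and 6 in the Sema3G libraries. Its groups overlapped, and its log2 fold change of -0.40 (standard error 0.47) was -1.05 without PBS replicate 1 and 0.26 without PBS replicate 2.

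**Figure D2:**
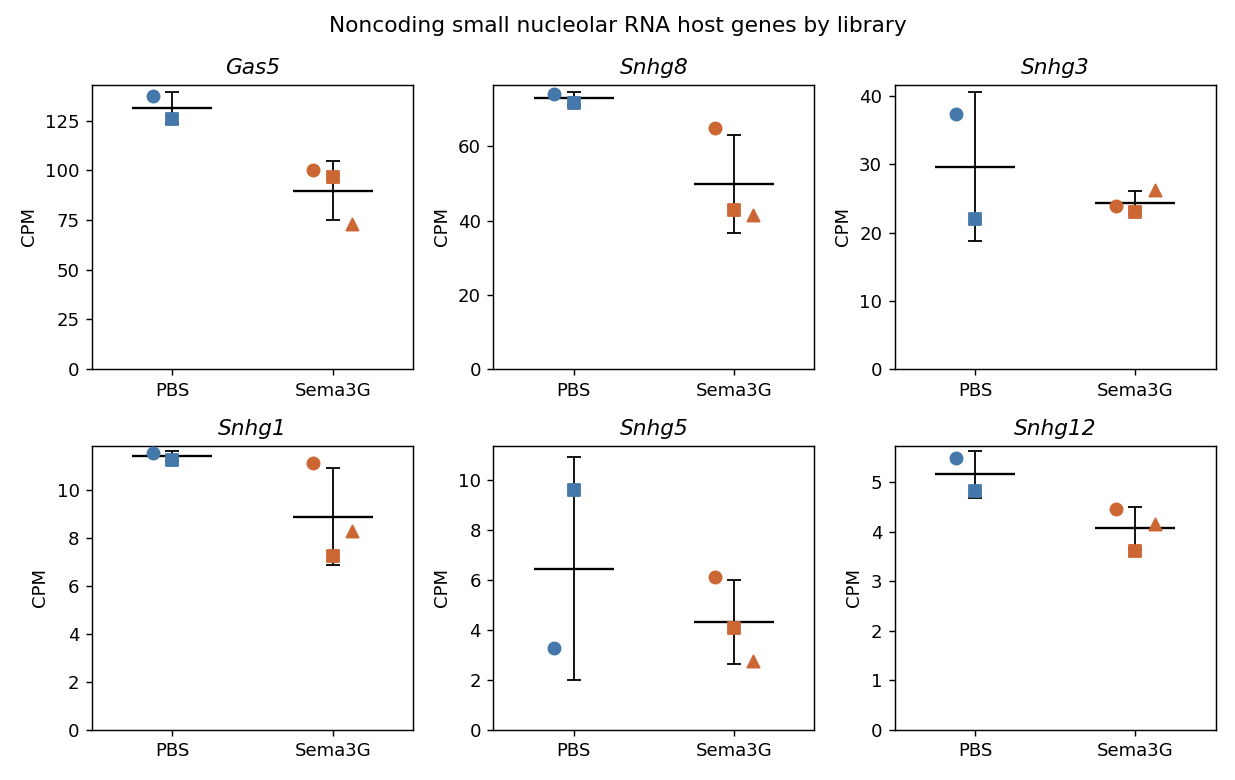
CPM of the 6 noncoding hosts in each library, 1 panel for each gene with its own axis from 0; circles, squares and triangles are replicates 1, 2 and 3, and the bars are the mean ± SD. Gas5, Snhg8, Snhg1 and Snhg12 lie lower in all 3 Sema3G libraries, and Snhg3 and Snhg5 overlap.

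The genes classed as protein-coding hosts differed in level and in direction. Rnf149, a RING-type E3 ubiquitin ligase at chr1:39551296-39577405 on the minus strand, had 3853 and 3514 UMIs in the PBS libraries against 3012, 3653 and 3504 in the Sema3G libraries, or 2117 and 1881 CPM against 1675, 1649 and 1615 CPM. All 3 Sema3G libraries were below both PBS libraries, with means of 1999 ± 167 CPM (SD, n = 2) and 1646 ± 29.8 CPM (SD, n = 3). Its log2 fold change of -0.28 (standard error 0.23) was only -0.053 from the median of all genes, and it turned to 0.013 when CPM were taken over listed genes other than Rn45s. The last 707 bp of Rnf149 are shared on the same strand with Gm15832, a noncoding gene at chr1:39547570-39552002 that had no row of its own, so reads of the 2 genes may be counted together.

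Eif4a2, an RNA helicase of the cap-binding translation initiation complex, lies at chr16:23107444-23114136 on the plus strand. Its UMI counts were 30 and 22 in the PBS libraries against 32, 49 and 37 in the Sema3G libraries, which is 16.5 and 11.8 CPM against 17.8, 22.1 and 17.1 CPM. The Sema3G libraries were all above the PBS libraries, with Sema3G replicate 3 close over PBS replicate 1. The means were 14.1 ± 3.33 CPM (SD, n = 2) and 18.99 ± 2.73 CPM (SD, n = 3), and the log2 fold change was 0.41 (standard error 0.29), with a range of 0.18 to 0.70 over 14 alternatives.

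Of the 10 genes, 1 passed an adjusted p of 0.05 in limma, where 1.8% of the 10088 genes tested did so. It was higher (Malat1), where 1.59% of all genes were called higher, and none of the 10 was called lower, where 0.218% were. Without adjustment 4 of the 10 had a limma p under 0.05, beside 21.1% of all genes tested. edgeR and DESeq2 each called 1 of the 10, beside 3.01% and 3.15% of all genes with an adjusted p. DESeq2 gave no adjusted p for Snhg5 and Snhg12. Without Sema3G replicate 1, Snhg8 was called lower as well, in a fit where 440 of the 10088 genes tested were. All 3 Sema3G libraries were above both PBS libraries for 2 genes (Malat1 and Eif4a2) beside 11.8% of all genes tested, and below both for 6 (Neat1, Gas5, Snhg1, Snhg8, Snhg12 and Rnf149) beside 26.5% of them. Since the genes were chosen with this contrast known, nothing is read from these counts. Their median log2 fold change was -0.31, and 8 of 10 lay below the median of all genes. By CPM, which counts tags and not length, the order of mean levels ran from Malat1, Neat1 and Rnf149 at percentiles 99.9, 99.8 and 99.7 of the genes tested through Gas5 (90.3), Snhg8 (81.2), Snhg3 (62.2), Eif4a2 (50.3) and Snhg1 (36.6) to Snhg5 (22.4) and Snhg12 (19.8). Neat1 and Rnf149 overlapped in both groups, as did Snhg5 and Snhg12, and Malat1 lay under Neat1 and Rnf149 in each PBS library and over them in each Sema3G library. All other neighbours in this order were apart within each group.

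**Figure D3:**
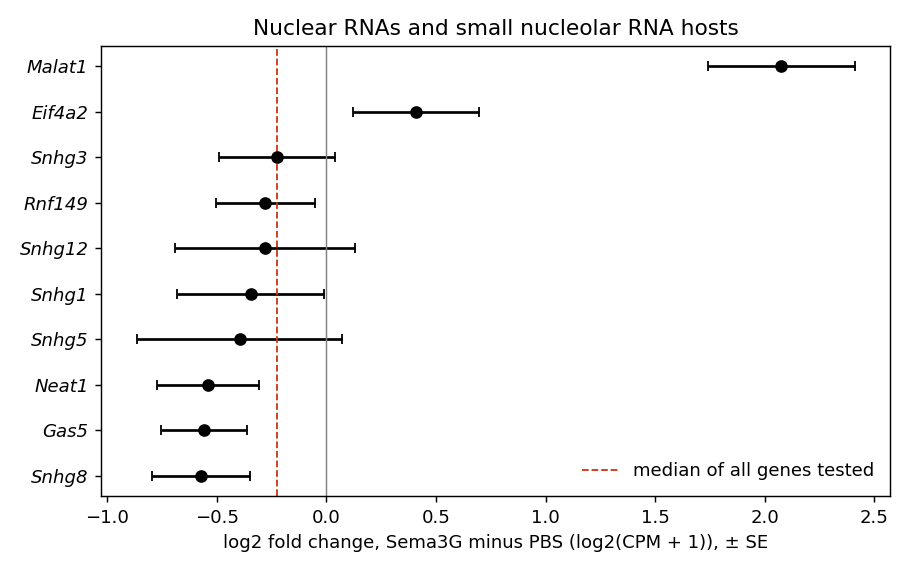
Log2 fold change (Sema3G minus PBS on log2(CPM + 1)) of each gene, with bars of ± 1 standard error from limma; the dashed line is the median of all 10088 genes tested. Malat1 and Eif4a2 lie above 0 and the other genes below, of which Snhg3, Snhg5 and Rnf149 change sign under an alternative, and Snhg3, Rnf149 and Snhg12 lie near the dashed line.

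The small RNAs inside the hosts were next set beside their hosts. GENCODE places 32 small nucleolar RNA genes on the same strand within these genes, 9 of which had a row and 4 of which had any UMI. Most of the 32 (28) lie inside an exon of some annotated transcript, so a tag there need not come from the mature small RNA. When transcripts annotated as keeping an intron are left aside, 7 of the 32 overlap an exon, and Snora81 does not. Snord22 in Snhg1 had 0 and 0 UMIs in the PBS libraries against 4, 2 and 2 in the Sema3G libraries, Snord47 in Gas5 had 0 and 0 against 1, 0 and 1, and Snord99 in Snhg12 had 0 and 0 against 1, 0 and 0. No library had more than 4 UMIs of any of these, against a floor of 3. Snora24, Snora16a, Snora44, Snora61 and Snord2 had 0 UMIs in every library, which limits each to at most 1.35 to 1.67 CPM by counting.

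Snora81, an H/ACA box RNA of 178 nt inside Eif4a2 (chr16:23110756-23110933, plus strand), was the exception in depth. Its UMI counts were 1 and 9 in the PBS libraries against 47, 85 and 91 in the Sema3G libraries, so its groups were far apart. Its log2 fold change was 3.58 (standard error 0.43), but PBS replicate 1 lies under the floor of 3 UMIs and the value is no exact fold. It was 2.62 without PBS replicate 1 and 4.53 without PBS replicate 2, and 2.43 and 4.29 with pseudocounts of 5 and 0.1 CPM. Its UMIs per Eif4a2 UMI were 0.0333 and 0.409 under PBS and 1.47, 1.73 and 2.46 under Sema3G, so the small RNA and its host did not keep 1 ratio. Snord89, a C/D box RNA of 110 nt (chr1:39548745-39548854, minus strand), lies inside Gm15832 and 2441 bp beyond the end of Rnf149, and RefSeq lists Gm15832 as another name of Rnf149. Its UMI counts were 17 and 50 in the PBS libraries against 460, 1134 and 1191 in the Sema3G libraries, while Rnf149 was lower in the Sema3G libraries, and its UMIs per Rnf149 UMI went from 0.00441 and 0.0142 to 0.153, 0.310 and 0.340. Both pairs had their lowest ratio in PBS replicate 1, and Rn45s was also lowest there. Both small RNAs were already known to differ when these genes were chosen, and their RNAs are shown from GENCODE M21, with capitals on the C box TGATGA and the D box CTGA of Snord89.
Snora81: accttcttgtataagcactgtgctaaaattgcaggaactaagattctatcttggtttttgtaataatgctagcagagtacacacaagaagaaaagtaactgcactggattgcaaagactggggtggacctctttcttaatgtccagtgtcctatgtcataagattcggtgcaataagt
Snord89: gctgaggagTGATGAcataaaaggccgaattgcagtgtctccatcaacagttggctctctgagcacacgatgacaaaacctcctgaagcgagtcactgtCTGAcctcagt

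**Figure D4:**
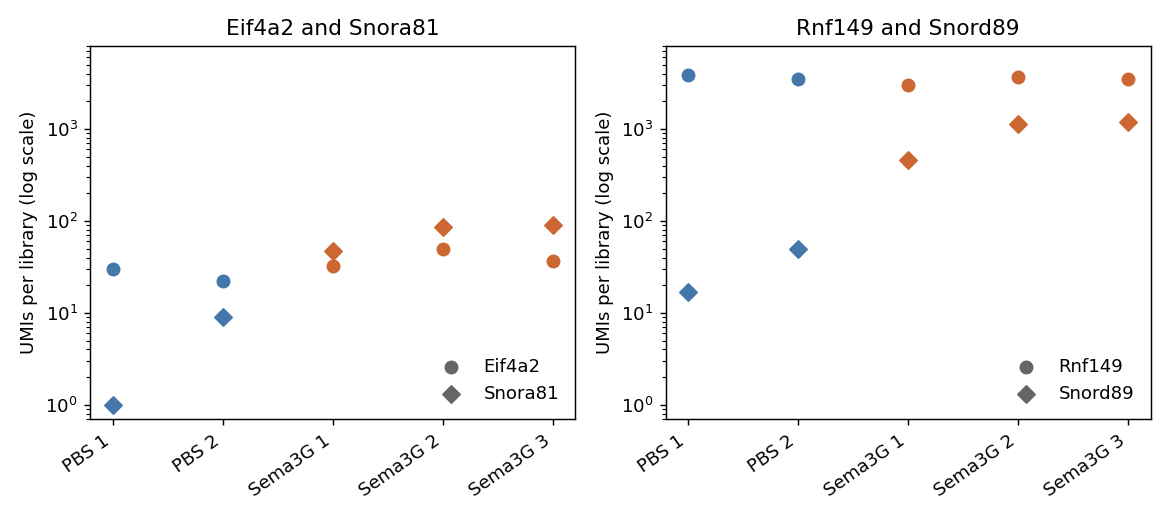
UMIs per library, on a log axis, of Eif4a2 with Snora81 and of Rnf149 with Snord89, with PBS in blue and Sema3G in orange. Circles are Eif4a2 and Rnf149, and diamonds are the small RNAs. Snora81 lies inside Eif4a2, whereas Snord89 lies beyond the end of Rnf149. The UMIs lie between 22 and 49 for Eif4a2 and between 3012 and 3853 for Rnf149, while both small RNAs have more UMIs in each Sema3G library than in either PBS library.

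Stretches of adenine inside an RNA, where an oligo(dT) primer can also start, were counted in the transcripts. A run of at least 8 adenines was in 13.8% of all 141767 GENCODE transcripts and in 5 of the 104 transcripts of these genes, which belong to 3 genes. Malat1 and Snhg12 had a longest run of 12, and a transcript of Rnf149 had a run of 20. The other 7 genes had none of that length, Gas5 and Neat1 among them. The primed site of each tag was not analysed here, so the part of these stretches was not tested.

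Lists of proteins and RNAs that work with these RNAs, and of other hosts, were examined next. Over 9 lists with 126 genes tested, 2 genes passed an adjusted p of 0.05 in limma, both higher, beside 1.8% of all genes tested (1.59% higher), so the count is near that of all genes. The counts at an unadjusted p are to be read beside the 21.1% of all genes tested that had a p under 0.05. The translation initiation scaffold Eif4g1, itself a host, had 124 and 88.9 CPM in the PBS libraries against 171, 195 and 210 CPM in the Sema3G libraries, a log2 fold change of 0.86 (standard error 0.20, limma adjusted p = 0.0322). Kcnq1ot1, a nuclear RNA that silences the imprinted Kcnq1 domain, had 36.8 and 47.1 CPM in the PBS libraries against 76.2, 89.4 and 88.0 CPM in the Sema3G libraries, a ratio of means of 2.01 and a log2 fold change 1.23 above the median of all genes (standard error 0.20, limma adjusted p = 0.0178). Their groups did not overlap. Both missed the threshold without Sema3G replicate 2 (limma adjusted p = 0.205 for Eif4g1 and 0.154 for Kcnq1ot1) and without Sema3G replicate 3 (0.196 and 0.121), as did Eif4g1 without PBS replicate 2 (0.130) and Kcnq1ot1 without PBS replicate 1 (0.102). Over 14 alternatives the adjusted p ran from 0.000434 to 0.205 for Eif4g1 and from 0.000162 to 0.154 for Kcnq1ot1, and both log2 fold changes stayed above 0.

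Among the other noncoding hosts, 13 of 19 were tested and limma, edgeR and DESeq2 called none, with 3 under an unadjusted p of 0.05 (21.1% of all genes) and a median log2 fold change of -0.16. Their most abundant members were 1500012F01Rik (Zfas1), at 78.6 and 43.9 CPM in the PBS libraries against 52.3, 36.1 and 25.4 CPM in the Sema3G libraries, and 2410006H16Rik, at 85.2 and 91.5 CPM in the PBS libraries against 69.5, 56.9 and 37.3 CPM in the Sema3G libraries. The groups overlapped for the first and not for the second, whose log2 fold change was -0.73 (limma adjusted p = 0.114). Of 26 genes listed as protein-coding hosts, all tested, Eif4g1 alone was called, by each of the 3 tools. Of all genes tested limma called 1.8% and edgeR 3.01%, and DESeq2 called 3.15% of the genes with an adjusted p. In this list 5 genes were under an unadjusted p of 0.05, and the median was -0.090. The elongation factor Eef2 and the ribosomal scaffold Gnb2l1 (Rack1), both hosts and the most abundant of this list, had log2 fold changes of -0.38 and -0.68 (limma adjusted p = 0.273 and 0.103) and were lower in all 3 Sema3G libraries.

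For the proteins of the nuclear compartments, none of 16 paraspeckle proteins was called by limma, edgeR or DESeq2 (3 under an unadjusted p of 0.05, beside 21.1% of all genes, median log2 fold change -0.16), and the abundant RNA-binding protein Hnrnpk had -0.25 with overlapping groups. Of 20 nuclear speckle proteins none was called by limma, with 7 under an unadjusted p of 0.05 (21.1% of all genes), and edgeR and DESeq2 each called 1. Their median was 0.13, which is 0.35 above that of all genes, but both directions occurred. All 3 Sema3G libraries were above both PBS libraries for 5 of the 20 (11.8% of all genes) and below both for 4 (26.5% of all genes). The splicing coactivator Srrm2 had 555 and 428 CPM in the PBS libraries against 633, 747 and 766 CPM in the Sema3G libraries, without overlap (log2 fold change 0.55, limma adjusted p = 0.143), and Son had 0.14 with overlap. Of 18 proteins of small nucleolar particles and their assembly none was called by the 3 tools (3 under an unadjusted p of 0.05, median -0.056). The H/ACA protein Nop10 had 110 and 108 CPM in the PBS libraries against 81.7, 59.6 and 61.3 CPM in the Sema3G libraries (log2 fold change -0.70, limma adjusted p = 0.0835), whereas the C/D protein Nop58 had -0.036.

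Of 15 factors of nonsense-mediated decay, the pathway that removes many spliced host RNAs, none was called by the 3 tools (3 under an unadjusted p of 0.05, beside 21.1% of all genes, median log2 fold change -0.18). The exon junction protein Rbm8a had -0.27. Of 12 factors that shape or stabilise the ends of Malat1 and Neat1 none was called by the 3 tools (1 under an unadjusted p of 0.05, median -0.16). The RNase P subunit Rpp21 had 54.9 and 49.3 CPM in the PBS libraries against 40.03, 26.6 and 24.9 CPM in the Sema3G libraries (log2 fold change -0.78, limma adjusted p = 0.102), while Mettl16, which binds the Malat1 triple helix, had -0.0086. Of 8 other long noncoding RNAs tested, Kcnq1ot1 alone was called by the 3 tools, 2 were under an unadjusted p of 0.05, the median was 0.044 and Dleu2, the other most abundant one, had -0.16.

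Of 9 RNAs without a poly(A) tail, 4 had a row and 2 were tested. Rn45s had a log2 fold change 2.22 above the median of all genes (limma adjusted p = 0.111). Rpph1, the RNA of RNase P, had 1 and 1 UMIs in the PBS libraries against 5, 7 and 4 in the Sema3G libraries. It was tested only because of its Sema3G values, and nothing is read from its difference. Neither RNA was called by limma or DESeq2, and edgeR called 1 of the 2, beside 3.01% of all genes tested. Rn45s had an unadjusted limma p under 0.05, as did 21.1% of all genes tested.

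**Figure D5:**
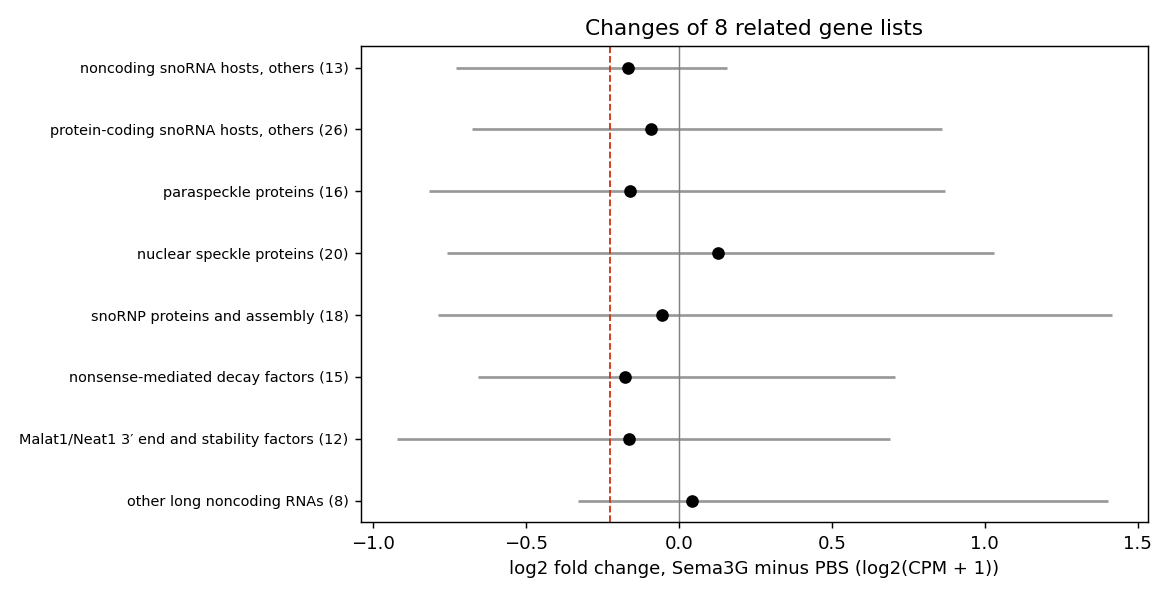
Median (point) and range (line) of the log2 fold change, Sema3G minus PBS on log2(CPM + 1), for 8 of the 9 lists, with the number of genes tested in brackets. The 2 RNAs without a poly(A) tail are not drawn, and their median of 1.60 includes Rpph1, which was tested only because of its Sema3G values. The dashed line is the median of all genes tested. All 8 medians lie between -0.18 and 0.13, above the dashed line, and every range spans 0.

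Profiles over the 5 libraries were compared by the root mean square difference of log2(CPM + 1) after each gene's own mean was subtracted, among the 6367 genes whose mean reached 10 CPM. Nearest to Malat1 were Wasf2, an actin regulator (0.171), Bmp2k, a kinase (0.221), and Pdia4, a disulfide isomerase of the endoplasmic reticulum (0.261). Nearest to Neat1 were Atp11a, a lipid flippase (0.0170), Saa3, an acute-phase protein (0.0250), and Slc2a1, a glucose transporter (0.0251). Among the nearest to Gas5 were Prkch, a protein kinase C (0.0250), and Atp5d, a subunit of ATP synthase (0.0451). Malat1 stood further from its nearest genes than Neat1 and Gas5 did from theirs. The measure is not scaled by how far a gene varies, and Malat1 varied more than Neat1 and Gas5. Wasf2 had 19.8 and 34.8 CPM in the PBS libraries against 79.5, 117 and 132 CPM in the Sema3G libraries. Slc2a1 had 235 and 310 CPM in the PBS libraries against 171, 196 and 179 CPM in the Sema3G libraries. Both were picked for their likeness to Malat1 and Neat1 over these libraries, so the shared order follows from the choice. Among the 10 genes themselves, compared without that minimum, the closest pair was Snhg12 and Rnf149 (0.0750) and the farthest was Malat1 and Snhg8 (1.46). Snhg12 lies below 10 CPM, with 8 to 10 UMIs a library, so its profile rests on few counts.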

How the data were processed

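RNA from 5 samples (PBS, n = 2; Sema3G, n = 3) was made by the authors into 3′ UMI libraries, mapped to mm10, counted per gene with Strand NGS and normalized with EdgeR (version 3.12 in the submitters' processing notes). Their EdgeR test and gene annotation were not given in the sources used here. Their deposited table holds CPM values. It also holds p-values, q-values and a ranking from their comparison, which were not used.

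All CPM were whole multiples of 1 step per library (100% of values within 0.01 of a count), which gave back the UMI counts. Main values came from limma (3.58.1, in R 4.3.3) fitted to log2(CPM + 1) with a variance trend and Benjamini-Hochberg adjustment over the 10088 genes whose mean reached 1 CPM. edgeR (4.0.16, quasi-likelihood, 304 genes called) and DESeq2 (1.42.0) took the recovered counts. The scripts were tested on simulated data. Of the rows, 27 carried symbols turned into dates, and none is named.

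Loci and transcripts came from GENCODE M21 (GRCm38), promoters and mascRNA from RefSeq. Intervals cover counting error only.

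The genes and lists were chosen with earlier results of these data known. Named are the 10 genes, list genes past the adjusted p, the 2 most abundant genes of each list, the 3 nearest profiles of Malat1, Neat1 and Gas5, small nucleolar RNAs with a UMI inside the 10 genes, and Rn45s. Some genes that this rule names are not reported here. Snord89, Rcc1 and Gm15832 were added after their values or positions were seen. Alternatives were pseudocounts of 0.1 and 5, no filter, a mean of at least 5 CPM, 2 other scalings, 2 count tests, a replicate block, and leaving out each library.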

Additional observations from a re-analysis of the deposited data

How the results depend on the processing

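The count of genes called, 182 (160 higher, 22 lower), was 108 without a filter on low values, 328 with TMM-scaled CPM (325 higher, 3 lower), 498 with CPM over listed genes other than Rn45s (496 higher, 2 lower) and 304 with edgeR on recovered counts (301 higher, 3 lower). Leaving out 1 library gave 27 to 710. The 27 (27 higher, 0 lower) came from leaving out Sema3G replicate 2 and the 710 (270 higher, 440 lower) from leaving out Sema3G replicate 1, where most calls were lower, and the count was 32 when Sema3G replicate 3 and 99 when PBS replicate 1 was left out. The median log2 fold change of the 10 genes (-0.31) was -0.14 with TMM, -0.065 with CPM over listed genes other than Rn45s, -0.15 with edgeR and -0.14 with DESeq2, and -0.42 to -0.25 with 1 library left out. The cause was not tested. The 2 calls among the companion genes became 5 with TMM, 6 with CPM over listed genes other than Rn45s, 4 with edgeR, 3 with DESeq2 and, with 1 library left out, 0 (without Sema3G replicate 2 or 3) to 8 (3 higher, 5 lower, without Sema3G replicate 1).

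The 10 genes were selected on this contrast, so their ranges only describe them. The log2 fold change of Malat1 ran from 1.48 to 2.67 over 14 alternatives. Neat1, Gas5, Snhg1 and Snhg8 stayed below 0 in all 14 and Snhg12 in all 13 it could be tested in. Against the median of all genes, Neat1 ran from -0.58 without PBS replicate 1 to -0.067 without PBS replicate 2. Snhg3 reached 0.14 without PBS replicate 1 and 0.056 with CPM over listed genes other than Rn45s, Snhg5 0.26 without PBS replicate 2 and Rnf149 0.013 with CPM over listed genes other than Rn45s.

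The labels number the samples, but only 2 numbers are shared between the groups, and the samples were not treated as pairs. The deviations of same-numbered samples correlated at 0.173 and 0.111. With 2 PBS libraries, the deviations of one mirror those of the other, so these values cannot decide whether the samples were paired. With a replicate block, which leaves 1 residual degree of freedom, 573 genes (298 higher, 275 lower) and 7 companion genes were called, and the median of the 10 genes was -0.29. Sema3G replicate 3 has no PBS library in its block, so the fold changes equal those without it, where 32 genes were called with no block. With 2 against 3 libraries, genes under about 20 UMIs a library (Snhg1, Snhg5, Snhg12) cannot show a moderate change.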

Other observations

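Other annotated hosts, looked up after the values above were seen, give a wider view. Besides Rnf149 and Eif4a2, 180 protein-coding genes that hold a small nucleolar RNA in GENCODE M21 were tested, of which 21 are also in the lists above. The 26 genes listed above as protein-coding hosts are therefore not all among the 180. limma called 9 of the 180 higher (5%) and none lower, beside 1.59% and 0.218% of all genes. Of the 159 in no list it called 8 higher, and the other one was Eif4g1, already given. The 9 were Eif3a, Eif4g1, Ep400, Kif13b, Kif2a, Mgat5, Srcap, Tmf1 and Vps13b. The 28 of the 180 that encode ribosomal proteins had no call and a median log2 fold change of -0.46, and the other 152 had a median of -0.11, beside -0.22 over all genes tested. These shares were not tested.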
